A study of Mus musculus with 30 samples.

Results

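Basic helix-loop-helix (bHLH) transcription factors bind DNA as pairs. The broadly expressed E proteins, encoded by Tcf3, Tcf4 and Tcf12, pair with tissue-restricted partners such as the proneural factor Neurog1 or the oligodendrocyte-lineage factors Olig1 and Olig2, and the pair reads the E-box, CANNTG. Proneural pairs are known to drive neural progenitors towards the neuronal fate. Id proteins also pair with E proteins but lack the DNA-binding region, so that they keep E proteins off the DNA.

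The genes described here are Neurog1, Tcf3, Tcf4, Tcf12 and Bhlhe22, a bHLH repressor of neurons related to the Olig factors. They were chosen by name, as every probe set that the platform annotation assigns to 1 of these symbols. This gave 16 of 45037 non-control probe sets: 2 for Neurog1, 3 for Tcf3, 6 for Tcf4 and 5 for Tcf12. These are 4 of the 18193 genes with a probe set of their own. Bhlhe22 was matched to no probe set and is not analysed here. The Entrez identifiers showed that Tcf3 and Tcf4 are the E protein genes and not Tcf7l1 and Tcf7l2, which once carried the same names. On GRCm38.p6, Neurog1 lies at chr13:56250478-56252180, Tcf3 at chr10:80409541-80433976, Tcf4 at chr18:69343429-69687967 and Tcf12 at chr9:71844252-72111893.

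The study measured RNA of mouse cells and tissue with 30 Affymetrix whole-genome expression arrays. Neurospheres gave 22 of them: these are floating cultures of neural progenitors, here started from ganglionic eminences of E14.5 embryos and grown with EGF and bFGF. All neurosphere lines, controls included, were Ink4a/Arf-/- and carried the mutant receptor EGFRvIII by retrovirus. Without a further virus there were 6 Olig1/2-/- (null), 3 Olig1/2+/- (heterozygous) and 3 Olig1/2+/+ (wild-type) lines, and the last 2 groups are together called Olig-expressing. A retrovirus for Olig2 or for GFP had been added to 3 of the null and 2 of the heterozygous lines, giving 3 null arrays with Olig2, 3 null arrays with GFP, 2 heterozygous arrays with Olig2 and 2 heterozygous arrays with GFP. The other 8 arrays were spinal cord and forebrain of 4 E18.5 embryos, of which 2 were null and 2 heterozygous. The tissue labels name Olig2 -/- or +/- where the series design names Olig1/2, and no label gives these embryos Ink4a/Arf-/- or EGFRvIII. The background was mixed Swiss and C57BL/6J throughout, and the passage at harvest is not given for each neurosphere array.

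Signals are MAS5 intensities on a linear scale with the same trimmed mean, 500, on each array. A value can be compared between arrays for 1 probe set but not between probe sets. Differences are log2 of the signal plus 16, tested with limma on every probe set that passed a filter, and a probe set was called at a Benjamini-Hochberg adjusted p under 0.05. To pass, a probe set had to reach the median of its array at least as often as there are arrays in the smallest group compared. The filter was passed by 14 of the 16 probe sets in the neurosphere sets and by 13 in tissue. Several probe sets measure the same gene on the same arrays, so counts of member probe sets are not counts of independent results. The array medians ran from 128.9 to 217.4, and arrays of 1 group correlated at 0.926 to 0.945. Precision is set by how few arrays each group has.

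The sources used here do not say where the probes for the deleted genes lie relative to the deletion, so their signals do not settle the genotype. In the 6 null lines Olig1 gave 7064.2 to 9509.3 and Olig2 gave 6177.4 to 11577.1, against 20360.5 to 30892.9 and 11500.1 to 18048.0 in the 6 Olig-expressing lines. The Olig1 ranges did not overlap, while the Olig2 ranges overlapped between 11500.1 and 11577.1. The Olig2 probe set gave 4450.3 to 10011.4 in null arrays with Olig2 virus and 8279.4 to 10274.8 in null arrays with GFP virus, so it did not show the added Olig2. The array that stood apart was that of null line 13 with GFP virus. Its Gapdh 3' to 5' log2 ratio was 0.43, against -0.33 to -0.04 in the other 21 neurosphere arrays, its median was the lowest of all, and its labelled A260/A280 was 2.83. The other 2 null arrays with GFP also differed from their Olig2 partners, as is given beside that comparison.

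Tcf12 was the member called between null and Olig-expressing lines without virus, and the DNA before its outermost annotated start is shown for that reason. It holds 1 E-box, in capitals, the sequence that bHLH pairs read. These are the 176 bases that RefSeq places at chr9:72111894-72112069 on GRCm38.p6, minus strand, written 5' to 3'.
Tcf12: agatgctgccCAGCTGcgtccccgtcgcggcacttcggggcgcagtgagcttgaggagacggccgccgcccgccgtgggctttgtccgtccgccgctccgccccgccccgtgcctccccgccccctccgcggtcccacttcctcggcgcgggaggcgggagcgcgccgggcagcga
The motif searched was CANNTG, which reads the same on both strands, and its letters here are CAGCTG, starting 166 bases before the start. Of 32851 RefSeq promoter windows cut to the same 176 bases, 54.7% held at least 1 such motif. All RefSeq windows lie 250 bases before to 50 after a start, and 3 of the 5 genes had one. A match is a string of letters and not a bound site.

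Neurog1, the proneural partner, gave signals that were mostly under the median of the array. Its probe set 1438551_at gave at most 22.6 on any of the 30 arrays, between 0.0121 and 0.111 of the array's median. Its other probe set, 1450836_at, gave 10.1 to 195.2 and reached the array's median on 1 of 30 arrays, that of wild-type line 3. The next highest values were 188.3 and 165.8, both in forebrain, while the other 2 forebrain arrays gave 72.8 and 18.1. Every group's range overlapped that of the next in order, and the 2 probe sets did not follow each other (r = 0.07 over 30 arrays). Neither probe set passed the filter in any set of arrays, so Neurog1 was not tested. No background level was estimated, so these values do not show whether Neurog1 RNA was present or absent.

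**Figure D1:**
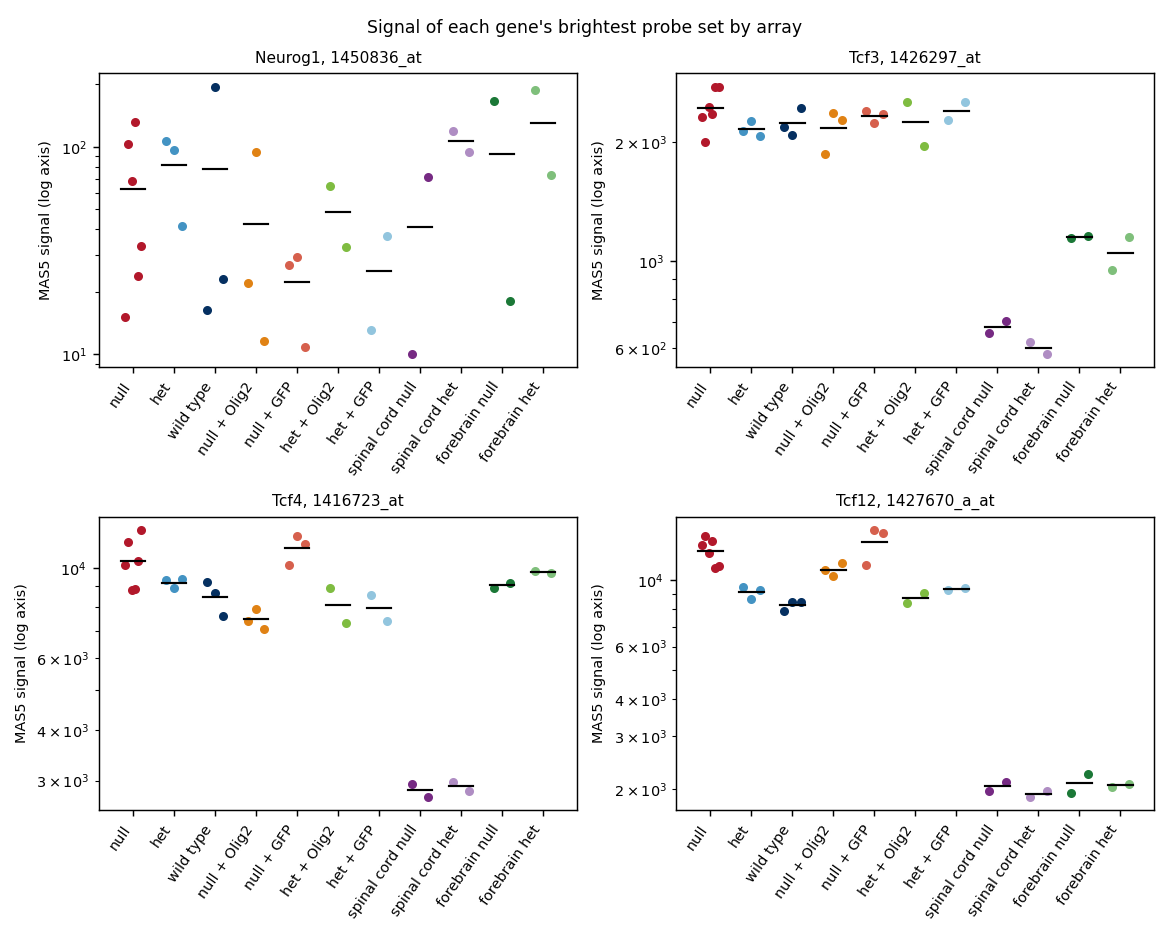
MAS5 signal (log axis) of the brightest probe set of Neurog1, Tcf3, Tcf4 and Tcf12 in each array of the 11 groups; points are arrays and bars are group means. Tcf12 stands highest in neurospheres without Olig1/2, Tcf4 and Tcf3 are lower in spinal cord than in forebrain, and Neurog1 scatters between 10.1 and 195.2 with no order.

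Tcf12, which encodes the E protein HEB, was higher in null than in Olig-expressing neurospheres. Of its 5 probe sets 4 rose, by 0.52 to 0.96 on the log2 scale, or 1.44 to 1.95-fold. They were the only calls among the 14 tested member probe sets, and 6.61% of all 25621 tested probe sets were called in this comparison, 3.52% as higher. Of the 14, 7 had an unadjusted p under 0.05, against 19.3% of all.

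The brightest Tcf12 probe set, 1427670_a_at, gave a lowest value of 10989.6, a median of 12740 and a highest value of 14083 in the 6 null lines. The Olig-expressing lines gave 9489.2, 8679.9 and 9276 where heterozygous and 7880.5, 8431.7 and 8434.7 where wild-type. Each null line lay above each of the 6 Olig-expressing lines, as on 2 other Tcf12 probe sets and on 2.03% of all tested probe sets. The means were 12540 ± 1269 in null and 8699 ± 594.8 in Olig-expressing lines (SD, n = 6 each), a difference of 0.52 ± 0.07 (SE, adjusted p 0.000472).

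For 1439619_at the null lines ran from 1419.1 to 2588.3 and the Olig-expressing lines from 742.5 to 1124. The means were 1848 ± 412.4 and 932.2 ± 152.4 in null and Olig-expressing lines (SD, n = 6 each). This was the widest of the 4 differences, at 0.96 ± 0.13 (SE, adjusted p 0.00045), and the groups did not overlap.

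For 1446294_at the null lines ran from 1067.4 to 1294.7 and the Olig-expressing lines from 513 to 822.2. The difference was 0.86 ± 0.10 (SE, adjusted p 0.00011), again without overlap and with the smallest p of the 5.

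The fourth, 1421908_a_at, averaged 10970 ± 1817 in null and 6654 ± 1453 in Olig-expressing lines (SD, n = 6 each). Its groups overlapped, as null line 24 gave 8196.4 and heterozygous line 11 gave 8367.1, and the difference was 0.74 ± 0.16 (SE, adjusted p 0.00967). The remaining probe set, 1439209_at, gave 673.3 to 1824.8 in null and 493.1 to 1135.9 in Olig-expressing lines and was not called (0.61 ± 0.25, adjusted p 0.20). Its null lines fell apart into 673.3 to 746.1 in lines 12, 13 and 14 and 1259.1 to 1824.8 in lines 16, 21 and 24. The 5 probe sets followed each other unevenly, with r from 0.07 to 0.88 over the 22 neurosphere arrays.

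Arrays of bulk cells cannot tell more Tcf12 RNA per cell from more cells that express it. The summed signal of 6 oligodendrocyte precursor markers was 1468 to 2970 in null and 2428 to 5363 in Olig-expressing lines. That of 8 neuronal markers was 8362 to 10960 in null and 6330 to 9040 in Olig-expressing lines, most of it from 1 gene, Map2 (8557 ± 874.9 in null and 6736 ± 900.5 in Olig-expressing lines, SD, n = 6 each). Of the 5 neuronal markers tested Map2 rose by 0.35 (adjusted p 0.0488), the other 4 were not called, and the median difference was 0.01. The sum of 6 neural progenitor markers was 70780 to 83020 in null and 73700 to 82760 in Olig-expressing lines. Among single markers, the precursor gene Cspg4 fell by 1.84 (adjusted p 0.00012), the only call of 5 precursor markers tested. The forebrain genes Lhx2 (0.99, adjusted p 0.0029) and Emx2 (0.60, adjusted p 0.0305) rose in null lines, 2 of 3 tested. The part of cell makeup in the Tcf12 difference was not tested.

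Between heterozygous and wild-type lines no member was called, against 0.00781% of all tested probe sets by limma, and 1 of 14 had an unadjusted p under 0.05, against 6.69% of all. That was Tcf12 1446294_at, at 743.7 ± 99.33 in heterozygous and 576 ± 66.03 in wild-type lines (SD, n = 3 each; 0.36 ± 0.14 SE, adjusted p 0.672). On 1427670_a_at and 1439619_at the 3 heterozygous lines lay above the 3 wild-type lines without overlap, by 0.15 ± 0.10 and 0.35 ± 0.19 (SE), neither called. The same held for 5.62% of all tested probe sets.

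Tcf4, the E protein gene that is highly expressed in the developing forebrain, did not pass the test between null and Olig-expressing lines. All 6 of its probe sets were on the higher side in null, by 0.17 to 0.56, with adjusted p from 0.162 to 0.34. The brightest, 1416723_at, averaged 10370 ± 1431 in null and 8849 ± 662.9 in Olig-expressing lines (SD, n = 6 each), with overlap. Tcf3 gave differences of -0.12 to 0.15 on its 3 probe sets, none called. Its brightest probe set, 1426297_at, averaged 2440 ± 288.9 in null and 2192 ± 135.4 in Olig-expressing lines (0.15 ± 0.09 SE, adjusted p 0.43). Over the 14 tested member probe sets the median difference was 0.22, against -0.03 over all tested probe sets.

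**Figure D2:**
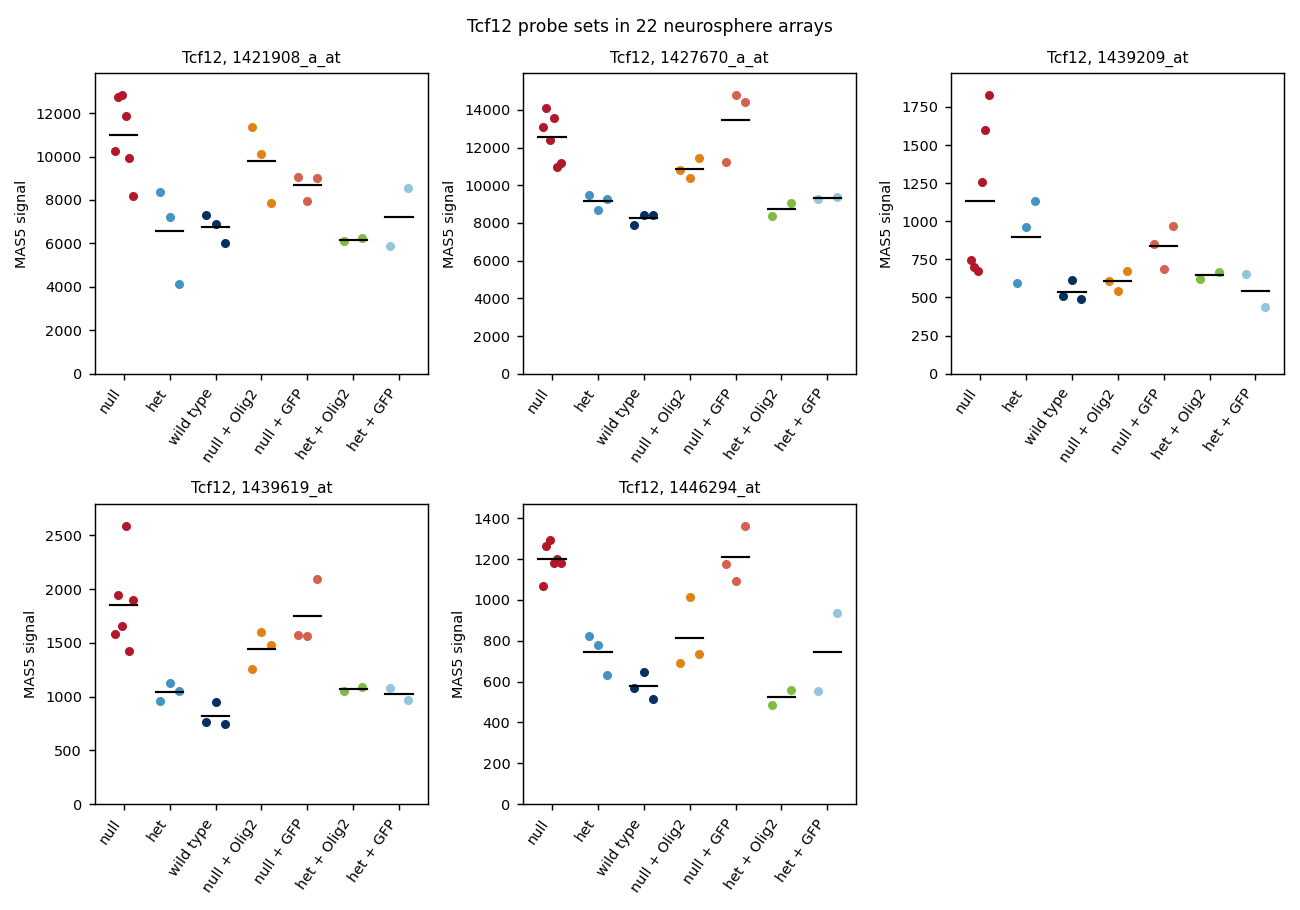
MAS5 signal of the 5 Tcf12 probe sets in the 22 neurosphere arrays by group; points are arrays and bars are group means. On 1427670_a_at, 1439619_at and 1446294_at the 6 null lines lie above all heterozygous and wild-type lines without virus.

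Adding Olig2 to null lines asks whether the null pattern is turned back. Here the member calls fell on Tcf4: 2 of its 6 probe sets were lower than with GFP, both at 0.669 of the GFP level. They were the only calls among the 14 tested member probe sets, where 7.65% of all 26735 tested probe sets were called, 3.36% as lower. Of the 14, 8 had an unadjusted p under 0.05, against 25.9% of all.

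For 1416723_at the null lines 12, 13 and 14 gave 7404.2, 7907.5 and 7084 with Olig2, against 10149.9, 11967.8 and 11424.9 with GFP. The difference was -0.58 ± 0.12 (SE, adjusted p 0.0143). For 1416724_x_at the same lines gave 5372, 5497.6 and 5069.9 with Olig2, against 7213.7, 8605.8 and 8078.6 with GFP. The difference was again -0.58, with an SE of 0.11 and an adjusted p of 0.00917. All 3 Olig2 arrays lay below all 3 GFP arrays on both probe sets.

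The 3 probe sets 1424089_a_at, 1434148_at and 1434149_at also had every Olig2 array below every GFP array, and Olig2 was lower within each of the 3 lines. That makes 5 of 6 Tcf4 probe sets with no overlap, against 11.8% of all tested probe sets that were lower without overlap. The 6 measure 1 gene on the same arrays, with r from 0.20 to 0.96 over the 22 neurosphere arrays, so they are not independent. The differences of these 3 were -0.32, -0.57 and -0.43, with adjusted p of 0.135, 0.0651 and 0.106. On 1434148_at lines 12, 13 and 14 gave 4355.6, 5340.7 and 6237.8 with Olig2, against 6396.3, 8023.8 and 9220.5 with GFP. The sixth, 1416725_at, is dim and did not separate (246.3 ± 53.86 with Olig2 and 254.4 ± 45.43 with GFP, SD, n = 3 each).

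RNA quality and cell markers moved with the virus in null lines. For lines 12, 13 and 14 the Gapdh 3' to 5' log2 ratio was -0.20, -0.20 and -0.25 with Olig2, against -0.09, 0.43 and -0.04 with GFP. The array medians were 191.2, 175.9 and 173.6 with Olig2, against 151.6, 128.9 and 149.6 with GFP, and the labelled A260/A280 was 1.78, 1.82 and 1.77 with Olig2, against 1.88, 2.83 and 1.86 with GFP. All 3 measures differed without overlap.

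Summed marker signals did not overlap either for neural progenitors (79290 to 82850 with Olig2 and 64990 to 76960 with GFP), neurons (8776 to 8937 with Olig2 and 9083 to 10930 with GFP) or microglia (646.8 to 997 with Olig2 and 481.8 to 543.1 with GFP). The same held for the 3 forebrain markers (1420 to 1735 with Olig2 and 1872 to 2180 with GFP) and the 3 spinal cord markers (1240 to 1379 with Olig2 and 529.7 to 848.1 with GFP). The sums for oligodendrocyte precursors overlapped (2269 to 3844 with Olig2 and 2122 to 3682 with GFP). Of single markers, Fabp7 (0.61, 1 of 6 progenitor markers tested) and Hoxa5 (1.35, 1 of 2 spinal cord markers tested) rose and Lhx2 (-0.95, 1 of 3 forebrain markers tested) fell, with adjusted p of 0.038, 0.0183 and 0.02. No tested marker of neurons, microglia or oligodendrocyte precursors was called. With GFP most of the neuronal sum came from Map2 (8998 ± 868.8) and most of the microglial sum from Csf1r (315.4 ± 83.19, SD, n = 3 each). Cx3cr1, Aif1 and Fcrls averaged under every array median with GFP. The part of RNA quality and cell makeup in the Tcf4 differences was not tested.

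The number of Tcf4 calls depended on the fit. With the culture line as a replicate block it was 4, adding 1434148_at (adjusted p 0.00961) and 1434149_at (adjusted p 0.0354). With untransduced arrays of the same null lines as the control it was 0, where 1416723_at was -0.44 (adjusted p 0.0798) and 1416724_x_at -0.42 (adjusted p 0.116). Without the array of null line 13 with GFP both calls stood, at -0.53 (adjusted p 0.0405) and -0.52 (adjusted p 0.0256). Leaving out other arrays 1 at a time gave 1 to 4 member calls: 1 without null line 12 with Olig2, when 1416723_at had an adjusted p of 0.0566, 3 without null line 14 with Olig2, and 4 without null line 12 with GFP. The last 4 were 3 of Tcf4 and Tcf12 1427670_a_at, which was then lower with Olig2 (adjusted p 0.0382).

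Scaling mattered in this comparison. The median over all tested probe sets was 0.11 as deposited and -0.01 when each array was scaled to its 75th percentile, and the calls over all probe sets, 1147 higher and 899 lower as deposited, became 842 higher and 1496 lower. Under that scaling the 2 called Tcf4 probe sets were both at -0.70 and 1434148_at was called too (-0.69, adjusted p 0.0352). Under quantile normalization the split was 795 higher and 771 lower.

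With all arrays, Tcf12 was not called for Olig2 against GFP in null lines. Of its 5 probe sets 4 were lower with Olig2, by 0.27 to 0.58 on the log2 scale, and 1421908_a_at was higher by 0.16. Whether Tcf12 moved less than Tcf4 was not tested. On 1446294_at lines 12, 13 and 14 gave 690.4, 1015.4 and 733.2 with Olig2, against 1176.5, 1090.8 and 1363.3 with GFP. These groups did not overlap, but the adjusted p was 0.116 (-0.58 ± 0.21, SE). On 1427670_a_at the same lines gave 10798.5, 10363.9 and 11446.8 with Olig2, against 11249.6, 14766.5 and 14399.7 with GFP, which overlap (-0.30 ± 0.12 SE, adjusted p 0.129). The Olig2 arrays of this probe set still lay above all 6 Olig-expressing lines without virus, a comparison that was not tested. Tcf3 gave -0.11 to 0.56, none called, and its largest difference, on 1427764_a_at, came with 1 low value of 251.4 on the array of null line 13 with GFP, against 568.8 and 707.7 on the other GFP arrays.

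In heterozygous lines Olig2 against GFP gave no call among the members and none among all 26735 probe sets (0%) by limma, and no member had an unadjusted p under 0.05. Tcf4 1416723_at gave 8919.8 and 7312 with Olig2, against 8575.5 and 7388.4 with GFP (0.02 ± 0.14, SE). The difference of the Olig2 effect, null minus heterozygous, was -0.60 ± 0.18 (SE, p 0.00684) for this probe set and -0.56 ± 0.17 (SE, p 0.0054) for 1416724_x_at. Neither passed the adjustment (adjusted p 0.312 and 0.30), 0 of 14 members did, and 0.0524% of all tested probe sets did. An Olig2 effect that differs between the genotypes was therefore not shown for Tcf4.

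**Figure D3:**
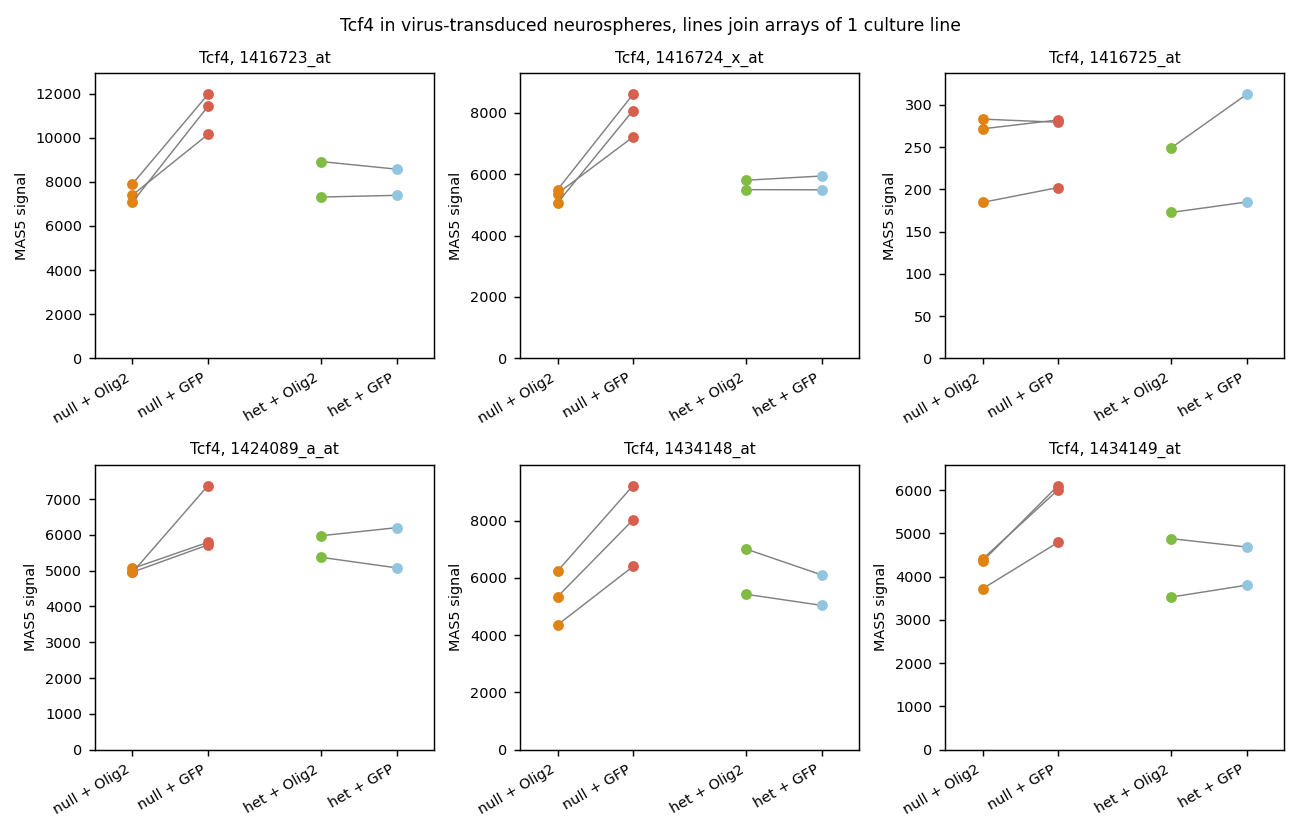
MAS5 signal of the 6 Tcf4 probe sets with Olig2 or GFP virus in 3 null and 2 heterozygous lines; points are arrays and grey lines join arrays of 1 culture line. In null lines Olig2 lies below GFP in each line on all probe sets but the dim 1416725_at, while in heterozygous lines the direction differs between probe sets.

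Null against heterozygous lines, both with GFP, compares the genotypes in cultures that had 2 viruses. No member was called, where 1.43% of all tested probe sets were, although 9 of 14 had an unadjusted p under 0.05, against 14.7% of all. All 5 Tcf12 probe sets were on the higher side in null, by 0.29 to 0.75, and 4 of them without overlap, as were 12.3% of all tested probe sets. On 1439619_at null lines with GFP gave 1575, 1566.3 and 2092.6, against 1075.7 and 969.1 in heterozygous lines with GFP (0.75 ± 0.17 SE, adjusted p 0.0603). Tcf4 was on the higher side in null on all 6 probe sets, by 0.06 to 0.49, and 1416724_x_at came closest to the threshold (adjusted p 0.0764). Tcf3 went the other way on all 3 probe sets, at -0.75 to -0.04. Its probe set 1427764_a_at, at -0.75, was 1 of the 9 with an unadjusted p under 0.05. That difference came with 1 low value of 251.4 on the array of null line 13 with GFP. The other null arrays with GFP gave 568.8 and 707.7. These GFP arrays also serve in the Olig2 comparison, so the 2 sets of values are not independent. Their Gapdh 3' to 5' log2 ratios were -0.09, 0.43 and -0.04 in null lines, against -0.14 and -0.24 in heterozygous lines. Their array medians were 151.6, 128.9 and 149.6 in null lines, against 164.8 and 171 in heterozygous lines. The part of RNA quality in these genotype differences was not tested. GFP against no further virus, in the same 5 lines, gave no member call, against 0.00752% of all tested probe sets. Of the 14 members 2 had an unadjusted p under 0.05, close to the 12.8% of all.

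The other genes of the pathway came from lists chosen for their role. Of all tested probe sets 6.61% were called between null and Olig-expressing lines. Between null and Olig-expressing lines the Id inhibitors moved in both directions: Id4 rose by 4.33 (adjusted p 1.62e-08) and Id2 by 0.70 (adjusted p 0.0469), Id3 fell by 0.57 (adjusted p 0.0205), and Id1 was not called (-0.67, adjusted p 0.102). Id4 averaged 3032 ± 332.9 in null lines (SD, n = 6), and heterozygous and wild-type lines together gave 64.4 to 202.2. Of 21 tissue-restricted bHLH genes with a probe set 7 were tested, and the only calls were the deleted genes themselves, Olig1 (-1.61) and Olig2 (-0.80). The Notch-responsive Hes and Hey repressors gave 1 call of 7 tested, Hey1, which rose by 1.61. Of 11 E protein cofactors tested, the corepressor Cbfa2t2 rose by 0.69 (adjusted p 0.00594) and Lmo2, which bridges bHLH complexes, fell by 1.93 (adjusted p 0.01). Of 4 tested zinc-finger repressors that also read E-boxes, Zeb2 rose by 0.68 and Snai1 fell by 0.99. Of 17 tested proneural targets, Insm1, a zinc-finger gene of new neurons, rose by 1.16 and the Notch ligand gene Dll1 fell by 1.28. Prdm8, which encodes the partner of Bhlhe22, rose by 1.01 (adjusted p 0.0484). Id4 in Olig-expressing lines and Snai1 and Lmo2 in null lines averaged under the median of any array, so the size of these 3 differences is uncertain.

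With Olig2 against GFP in null lines, Id4 fell by 2.52 (adjusted p 0.00143), and the other 3 Id genes were not called. Of all tested probe sets 7.65% were called there. Cbfa2t2 fell by 0.75, Insm1 fell by 1.15 and Prdm8 fell by 1.86 (adjusted p 0.0269, 0.0277 and 0.00721). Dll1 rose by 1.62, the Notch-modifying gene Mfng by 1.76 and the corepressor Rcor2 by 1.04, so that 3 of 19 tested proneural targets rose and 1 fell. Among the Hes and Hey repressors and their kin, Hes5 rose by 2.27 and Bhlhe40 by 1.26, of 6 tested. Hes5 (48.37) and Mfng (64.13) averaged under every array median with GFP, so the size of their differences is uncertain. None of 11 tested tissue-restricted bHLH genes was called, and none of the 4 E-box zinc-finger genes. Between null and heterozygous lines with GFP, Id4 rose by 4.09, Dll1 fell by 1.46 and the deleted Olig1 fell by 1.78. No list had a call for heterozygous against wild-type lines or for Olig2 against GFP in heterozygous lines. List medians stood at -0.13 to 0.40 between null and Olig-expressing lines and at -0.81 to 0.60 for Olig2 in null lines, over the 7 lists of the pathway.

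In E18.5 tissue the E proteins differed by region and not detectably by Olig genotype. Of 13 tested member probe sets, 12 reached the array median on at least 1 array of each region, and 8 of these were lower in spinal cord than in forebrain. Of all 25925 tested probe sets 37.7% were called, 19.1% as lower. The 8 were 5 of Tcf4, both tested probe sets of Tcf3 and 1 of 5 of Tcf12.

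Tcf4 was the most even of them. On 1416723_at spinal cord gave 2947.5 and 2736 in null and 2980.3 and 2828.4 in heterozygous embryos, against forebrain values of 8904.8 and 9197.6 in null and 9811.1 and 9728.7 in heterozygous embryos. The means were 2873 ± 112.3 in spinal cord and 9411 ± 433.1 in forebrain (SD, n = 4 each), a difference of -1.71 ± 0.06 (SE, adjusted p 1.06e-08). The other 4 of these Tcf4 probe sets gave -1.42 to -2.02, with adjusted p from 5.04e-08 to 2.34e-07, and on each all 4 spinal cords lay below all 4 forebrains, as on 18.6% of all tested probe sets. The dim 1416725_at reached the array median in 3 of 4 forebrains and 0 of 4 spinal cords, so it passed the filter through forebrain alone and its call is no support. It gave 62.3 to 132.8 in spinal cord and 198.4 to 318.6 in forebrain, and its call was lost without the forebrain of heterozygous embryo 3 (adjusted p 0.0518).

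Tcf3, an E protein gene known from dividing precursors, averaged 641.8 ± 51.95 in spinal cord and 1098 ± 100.9 in forebrain on 1426297_at (SD, n = 4 each). This was a difference of -0.76 ± 0.10 (SE, adjusted p 0.000185). On 1427764_a_at the difference was -0.81 ± 0.18 (SE, adjusted p 0.00453). The third Tcf3 probe set, 1452542_x_at, did not pass the filter and gave 8.8 to 44.3 in spinal cord and 174 to 235.2 in forebrain.

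The Tcf12 probe sets disagreed. On 1421908_a_at spinal cord averaged 681.6 ± 108.3 and forebrain 1458 ± 172.7 (SD, n = 4 each), a difference of -1.08 ± 0.12 (SE, adjusted p 3.64e-05). On the brighter 1427670_a_at spinal cord averaged 1981 ± 96.55 and forebrain 2071 ± 124 (SD, n = 4 each), and the difference was -0.06 ± 0.08 (SE, adjusted p 0.57). The other 3 gave -0.46 to 0.40, none called, so a regional difference of Tcf12 rests on 1 probe set.

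**Figure D4:**
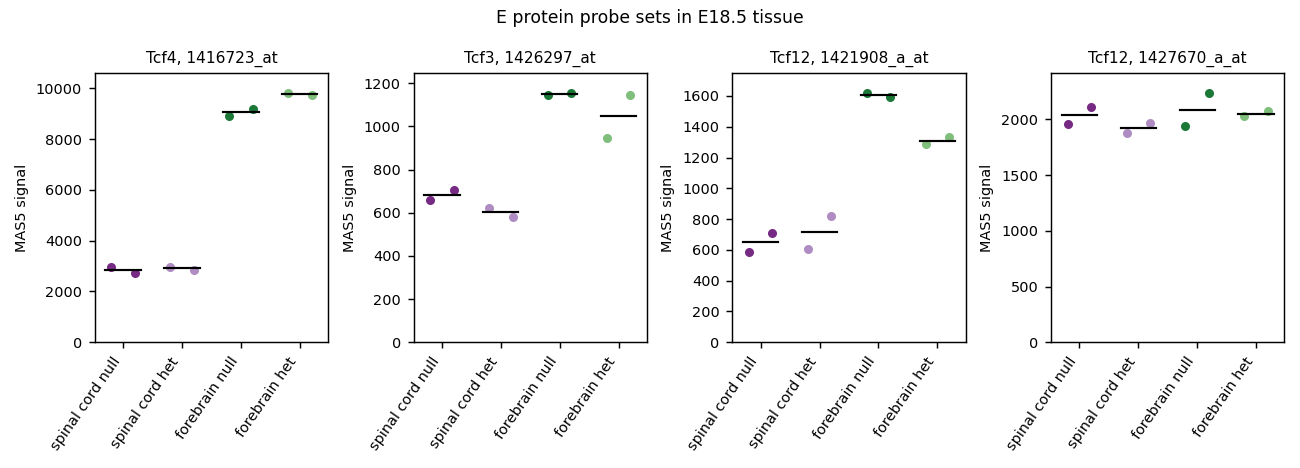
MAS5 signal in E18.5 spinal cord and forebrain of null and heterozygous embryos for 4 E protein probe sets; points are embryos and bars are group means. Spinal cord lies below forebrain for Tcf4, Tcf3 and Tcf12 1421908_a_at, while Tcf12 1427670_a_at overlaps.

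Other measures moved with the region. The Gapdh 3' to 5' log2 ratio was 0.04 to 0.37 in spinal cord and -0.22 to -0.07 in forebrain. The 4 microglial markers summed to 3173 to 4875 in spinal cord and 1548 to 2020 in forebrain, and the 8 neuronal markers to 64380 to 67880 in spinal cord and 76590 to 80300 in forebrain. The 3 measured of 4 forebrain markers summed to 207.8 to 264.6 in spinal cord and 3017 to 3430 in forebrain. The part of RNA quality and cell makeup in the E protein differences was not tested.

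Partners of the E proteins also differed by region, where 37.7% of all tested probe sets were called, 19.1% as lower in spinal cord. Of 13 tested tissue-restricted bHLH genes, 5 were lower in spinal cord and 3 higher. Among these, Neurog2 and Olig3 passed the filter only through the region where they were high, so their calls are no support. The neuronal genes Neurod6 (-3.03), Neurod2 (-2.38) and Neurod1 (-1.71) were lower in spinal cord. So was Neurog2, whose 81.78 ± 36.04 in spinal cord lay under every array median, against 516.4 ± 106.5 in forebrain (SD, n = 4 each), so no size is given. By contrast, Olig3, Tal1 and Olig1 (0.56) were higher, and Olig3 and Tal1 averaged under every array median in forebrain. The Olig1 difference lay mostly in heterozygous embryos, with 3985 ± 118.1 in spinal cord and 1987 ± 283.4 in forebrain. Null embryos, in which Olig1 is deleted by design, gave 1942 ± 91.22 in spinal cord and 1787 ± 143.8 in forebrain (SD, n = 2 each). All 4 Id genes were called: Id3 (1.53), Id1 (0.99) and Id4 (0.45) were higher and Id2 (-1.20) was lower in spinal cord. Of 19 tested proneural targets 10 were lower, among them Sox11 (-3.39), Insm1 (-2.99) and Sox4 (-1.18), and Rnd2 (0.78) and Dll3 (0.44) were higher in spinal cord. The 10 include Eomes, whose 129.4 ± 19.44 in spinal cord (SD, n = 4) lay under every array median. Eomes passed the filter through forebrain, so its call is no support. Insm1 averaged 200.7 ± 36.64 in spinal cord (SD, n = 4), under the median of each spinal cord array, so its size is uncertain. Neurod1 and Hes6 stand in 2 of the lists. Of 12 tested cofactors 7 were lower and Lmo2 (0.83) was higher in spinal cord. The smallest p-values were those of Lmo4 (-1.58) and Ldb1 (-1.33). Of 5 tested E-box zinc-finger genes 3 were lower, Scrt2 (-1.41), Zeb2 (-1.20) and Scrt1 (-0.54). Among the Hes and Hey repressors Hey1 was higher (1.51) and Hes6 lower (-1.10), and of the genes tied to Bhlhe22, Cdh11 was higher (0.52) and Prdm8 lower (-0.67).

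Null against heterozygous embryos gave no member call in either tissue. In spinal cord 1 of 13 tested probe sets had an unadjusted p under 0.05, Tcf3 1427764_a_at, against 5.89% of all, with 235.1 and 218.3 in null and 144.9 and 145 in heterozygous embryos (0.59 ± 0.25 SE, adjusted p 0.841). In forebrain none did. Over all tested probe sets limma called 0.081% in spinal cord, 0.0154% in forebrain and 0.00386% for the difference between the tissues, which no member passed. On Tcf4 1416723_at the null minus heterozygous difference in spinal cord was -0.03 ± 0.08 (SE), and on Tcf12 1427670_a_at it was 0.08 ± 0.11 (SE). Of the pathway lists, Sox11, a transcription factor gene of young neurons, was called in both tissues. Sox11 averaged 1677 ± 258.9 in null and 363.6 ± 133.7 in heterozygous spinal cord, and 20290 ± 406 in null and 3343 ± 690.3 in heterozygous forebrain (SD, n = 2 each). The differences were 2.20 ± 0.22 in spinal cord and 2.61 ± 0.22 in forebrain (SE, adjusted p 0.00523 and 0.00375). Olig1 fell by 1.03 in null spinal cord (adjusted p 0.0119) and was not called in forebrain (-0.15, adjusted p 0.861). Olig2 was called in neither tissue (-3.24, adjusted p 0.0587 in spinal cord and -1.325, adjusted p 0.711 in forebrain). Its signals in null embryos averaged under every array median, so the size of these differences is uncertain. No other gene of the pathway lists was called. Of the precursor markers Gpr17 fell in null spinal cord, to an average of 18.95 in null, against 1845 in heterozygous embryos (adjusted p 0.000276). The part of cell makeup in these differences was not tested. The 2 embryos in each group limit the size of difference that could be detected. In spinal cord the 6 oligodendrocyte precursor markers summed to 1992 to 2079 in null and 5116 to 5314 in heterozygous embryos.

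**Figure D5:**
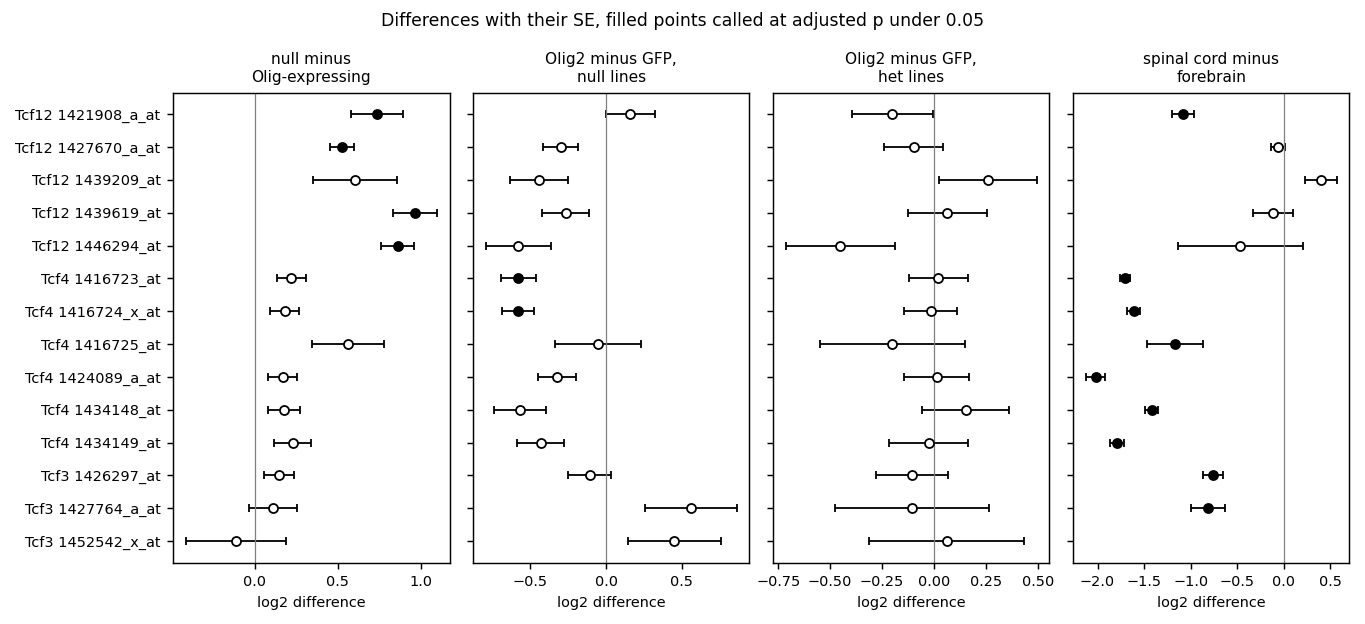
Log2 differences with their SE for the 14 E protein probe sets in 4 comparisons, the axis running from lower to higher in the first-named group; filled points were called at an adjusted p under 0.05, and an untested probe set has no point. Tcf12 is called in null lines, Tcf4 with Olig2 in null lines, and Tcf4, Tcf3 and 1 Tcf12 probe set between the tissues, where 1416725_at passed the filter through forebrain alone.

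Across all 11 groups the 3 E protein genes had different orders of level. These are descriptions, since neurospheres and tissue differ in culture, age, genotype and virus. Tcf12 1427670_a_at averaged 10750 ± 2151 over the 22 neurosphere arrays, 1981 ± 96.55 in spinal cord and 2071 ± 124 in forebrain, and all 5 Tcf12 probe sets were higher in neurospheres than in both tissues, by 0.94 to 3.58. In the order of its 11 group means, neighbouring groups were apart only between null with Olig2 and heterozygous with GFP and between wild-type lines and the first tissue group. Tcf4 1416723_at averaged 9248 ± 1567 in neurospheres, close to the 9411 ± 433.1 of forebrain, and stood well above the 2873 ± 112.3 of spinal cord. Its neighbouring groups were apart between null with Olig2 and spinal cord and between heterozygous forebrain and heterozygous lines. Tcf3 1426297_at averaged 2298 ± 232 in neurospheres, 641.8 ± 51.95 in spinal cord and 1098 ± 100.9 in forebrain, and no 2 neighbouring neurosphere groups were apart.

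The genes most like each E protein gene were sought among 14010 genes by Pearson's r of log2 signal over the 22 neurosphere arrays. For Tcf12 they were Trim2 (0.92), Lxn (0.92) and Igsf11 (0.92), for Tcf4 Mxd4 (0.91), Gnaq (0.88) and Gnb4 (0.87), and for Tcf3 Med22 (0.77), Mllt1 (0.73) and Nmral1 (0.72). The points share their culture lines and fall into genotype groups, so these values are descriptions. Over all 30 arrays the leading genes were others: Dennd2a (0.99), Dennd5a (0.98) and Tnfrsf12a (0.98) for Tcf12, Smad4 (0.92), Zfp281 (0.92) and Pak2 (0.92) for Tcf4, and the progenitor gene Nes (0.98), the cell-cycle kinase gene Cdk4 (0.98) and Gatad2a (0.97) for Tcf3. For Neurog1, whose signals were mostly under the array median, the leading values over 22 arrays were Rpp25 (0.80), Lcat (0.72) and Lrp8 (0.68). Over 30 arrays they were Prr16, Cela3b and Reg3b (0.60 to 0.62).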

How the data were processed

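The authors deposited 1 table of MAS5 signal intensity for 30 arrays, naming MAS5 in the submitters' processing notes without a version. The deposited intensity values are linear, and on each array the mean without the lowest and highest 2% was 500. All arrays carry the same hybridisation date in the labels, so no scan batch could be compared. Probe sets were named from the platform annotation: of 45101, 64 were controls, 34945 had 1 symbol, 932 had several and 9160 had none. The members and lists were chosen with earlier results of these data known.

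Signals plus 16 were taken to log2 and tested with limma 3.58.1 (lmFit, contrasts, eBayes with trend) in R 4.3.3, separately for 12 untransduced neurosphere arrays, 10 virus arrays, 10 arrays of GFP and untransduced cells of the same lines, and 8 tissue arrays. The filter on low signals left 25621, 26735, 26597 and 25925 probe sets, and p-values were adjusted by Benjamini and Hochberg over all of these. In all, 11 comparisons were made. Olig-expressing is the mean of the heterozygous and wild-type groups. The scripts were tested on simulated data. Lines count as replicates because the labels number them separately.

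Culture line and embryo numbers in the labels pair the virus arrays and the tissues. Same-line deviations correlated at 0.033 to 0.0797 for null Olig2 and GFP arrays, 0.132 for heterozygous ones, 0.0365 and 0.045 for embryos, and -0.103 to 0.0115 for GFP and untransduced arrays. Alternatives were pseudocounts of 1 and 64, no filter, scaling to the 75th percentile, quantile normalization, 1 probe set per gene, no trend, the replicate block, untransduced controls and leaving out each array.

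Each gene's brightest probe set has the highest average log2 signal across the 30 arrays. Named from each list were up to 4 genes of smallest p per comparison, plus Id4, Olig1 and Olig2. Exceptions, named after their values were seen, were Olig3, Tal1, Lmo2, Rnd2 and Dll3 in tissue. Likeness took 3 genes per member. Gene positions and the Tcf12 sequence came from RefSeq on GRCm38.p6.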

Additional observations from a re-analysis of the deposited data

How the results depend on the processing

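No member difference changed sign among its called values under any alternative run. With 1 probe set per gene, the member calls were 1 for null against Olig-expressing lines (4 over all probe sets), 1 for Olig2 against GFP in null lines (2 over all probe sets) and 2 for spinal cord against forebrain (9 over all probe sets, Tcf4 1416725_at included), because fewer member probe sets were tested. For Olig2 against GFP in null lines there were 4 calls with the replicate block, 3 with 75th percentile scaling, 0 without the trend (adjusted p 0.0668 for 1416723_at and 0.0539 for 1416724_x_at) and 0 against the untransduced control, and the cause was not tested. Leaving out 1 array gave 1 to 4 calls there, 0 to 1 for null against heterozygous lines with GFP, 8 to 9 for spinal cord against forebrain and 4 to 4 for null against Olig-expressing lines. Null against heterozygous lines with GFP had 1 call under 75th percentile scaling (Tcf12 1439619_at, 0.83, adjusted p 0.0378) and 1 without null line 12 with GFP (Tcf12 1427670_a_at, 0.64, adjusted p 0.0234). The replicate block changed no other member call.

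Over all probe sets, Olig2 against GFP in null lines had 2046 calls, against 982 with 1 probe set per gene, 925 without the trend, 664 against the untransduced control and 611 to 2118 with an array left out. Null against Olig-expressing lines had 1693, against 1000 with 1 probe set per gene. Null against heterozygous lines with GFP had 381, against 212 with 1 probe set per gene, 109 without the trend and 38 to 514 with an array left out. Spinal cord against forebrain had 9763, against 4939 with 1 probe set per gene. The difference of the Olig2 effects had 14, against 7 with the replicate block, 7 with 1 probe set per gene, 27 with a pseudocount of 64, 23 with 75th percentile scaling, 0 without the trend and 1 to 54 with an array left out. Null against heterozygous spinal cord had 21, against 7 without the trend and 3 to 24 with an array left out. The other comparisons had 0 to 4 calls as reported and 0 to 14 under any alternative. Low signals limit what could be said of Neurog1, Tcf4 1416725_at and Tcf3 1452542_x_at.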
